A study of Rattus norvegicus with 12 samples.

Results

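The receptors through which acetylcholine, serotonin, noradrenaline, dopamine, adenosine and endocannabinoids act were examined in CA1, a pyramidal cell field of the rat hippocampus, after a spatial learning session and after a control task. Probe sets were taken where the array annotation gives 1 gene symbol and that symbol is Chrm1, Chrm3, Chrna7, Htr1a, Htr2c, Adrb1, Adora1, Adora2a, Cnr1 or Drd1. All 10 genes were found, with 16 of the 15923 probe sets in the table. Of these genes 6 have 2 probe sets and 4 have 1. The arrays were Affymetrix RAE230A, a 1-colour array of short probes grouped into probe sets, and each of 12 arrays held CA1 RNA of 1 male Long-Evans rat aged 3 to 4 months.

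All 12 rats had first learned a standard water maze and, 2 to 3 weeks later, swam 8 trials at intervals of 8 minutes in a new maze at another site. In the spatial learning group, 6 rats, orienting cues were present and the visible platform kept its place. In the control task group, 6 rats, the visible platform moved between trials and no informative cues were given. After 1 hour the platform was removed for a probe trial of 90 seconds in both groups, and tissue was taken directly afterwards, so every rat had swum and had been in a maze before. The comparison asks which CA1 transcripts differ when a place could be learned in the session. Each difference is the spatial learning mean minus that of the control task, in log2 units, so that 1 unit is a doubling.

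Neuromodulators reach the hippocampus from outside it, through cholinergic fibres of the septum and monoamine fibres of the brainstem and midbrain, while adenosine and endocannabinoids are made locally. Most of their receptors couple to G proteins. Gq raises phospholipase C activity, Gi/o lowers cyclic AMP and opens inwardly rectifying potassium channels, and Gs raises cyclic AMP. These receptors set the excitability of CA1 pyramidal cells and the release of glutamate and GABA onto them, and several of them influence long-term potentiation and spatial memory.

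Of the 10 receptor genes, 7 lay above the background limit in CA1 and 3 did not, and none of the 7 differed between the groups past the test. A mean of at least 4 (log2) over the 12 arrays was taken as the limit. The 7 above it were Chrm1, Chrm3, Chrna7, Htr1a, Htr2c, Adora1 and Cnr1, with 11 probe sets, and the 3 below it were Adrb1, Adora2a and Drd1, with 5. The probe set just inside the limit was Chrm3 1369112_at, with a mean of 4.12 and a value of at least 4 on 9 of 12 arrays. The one just outside was Drd1 1368479_at, at 2.97. Genes of liver, muscle, pancreas, testis and other organs gave a scale for what the array reports for transcripts that CA1 should hardly hold. Their 55 probe sets had a median of 2.64, and 10 of them reached 4. Of these 10, 5 are annotated to Myh1, a muscle myosin, and read between 9.50 and 13.17, and whether their annotation is right was not tested. The other 5 were Acta1 at 7.13, Prm1 at 5.34, Prm2 at 5.09, Pnlip at 4.73 and Myh4 at 4.25. Chrm1, Htr1a and Chrna7, with means of 5.88, 5.84 and 5.60, were among the receptors below Acta1. A mean above the limit therefore does not by itself show that a transcript was present. When the Myh1 probe sets were left out, a choice made after the data had been seen, the 95th percentile was 4.92, and 10 receptor probe sets exceeded it. With Myh1 it was 10.07, and only Cnr1 1369677_at did.

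**Figure D1:**
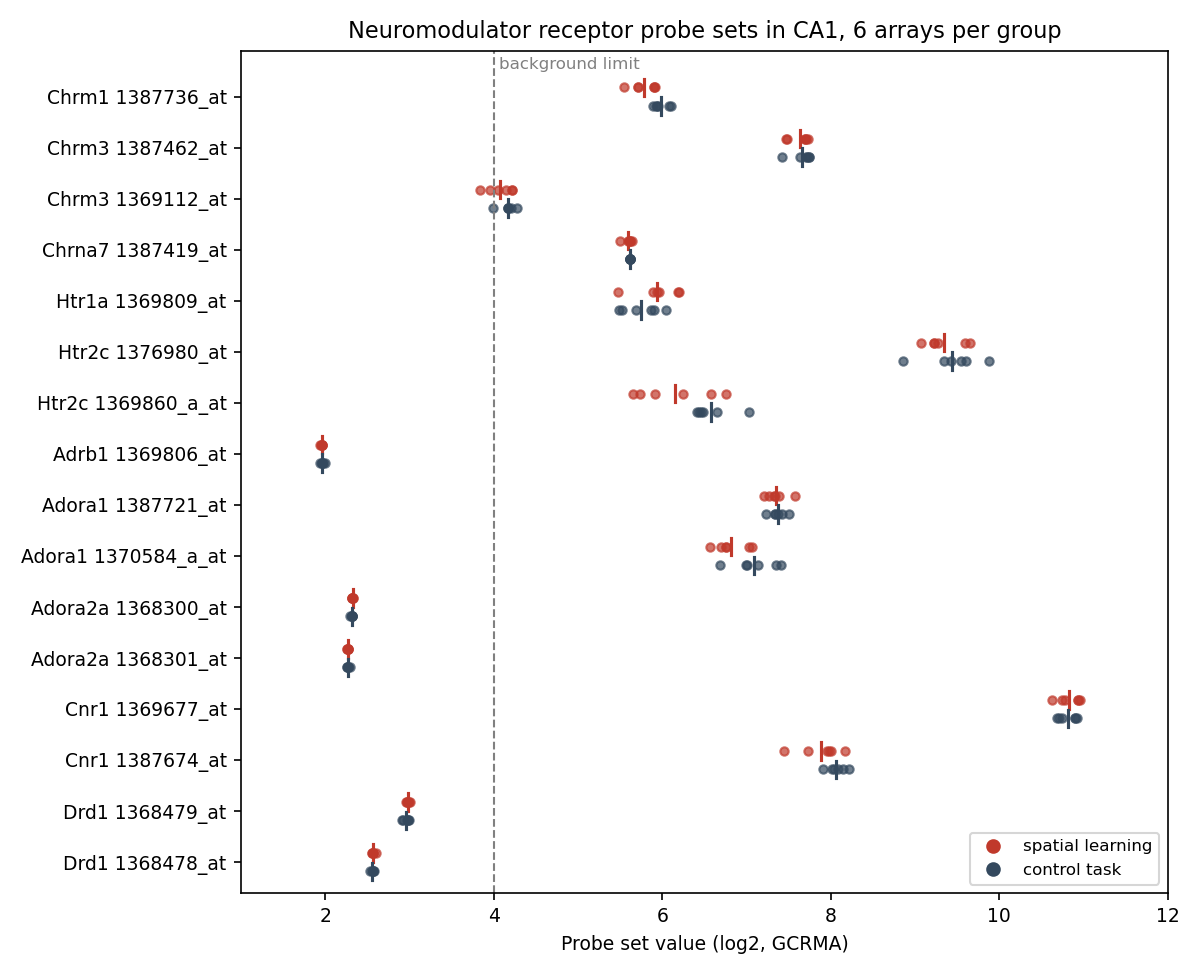
Values of the 16 probe sets (log2, horizontal axis) on every array, with spatial learning (red) above control task (dark blue) in each row, 6 points per group and a bar at the group mean. The 5 probe sets of Adrb1, Adora2a and Drd1 lie left of the dashed limit at 4 with almost no spread, and the groups overlap in every row.

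Chrm1 encodes the M1 muscarinic receptor, the main Gq-coupled acetylcholine receptor of forebrain pyramidal cells. Its probe set read 5.55, 5.90, 5.90, 5.91, 5.71 and 5.71 in spatial learning arrays 1 to 6, against 6.08, 5.89, 5.92, 6.10, 5.94 and 5.95 in control task arrays 1 to 6. In 3 of the spatial learning arrays the value was below every control value, and 5 of the 6 control values were above every spatial learning value. The means were 5.78 ± 0.15 and, in the control task group, 5.98 ± 0.09 (SD, n = 6 each). The difference was -0.20 with a 95% interval of -0.35 to -0.05, a ratio of 0.871. Its limma p was 0.0142 before adjustment and 0.423 after Benjamini-Hochberg adjustment over the 9610 probe sets tested, so it did not pass.

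Chrm3 encodes the M3 muscarinic receptor, which also couples to Gq. The brighter of its 2 probe sets, 1387462_at, read 7.69, 7.71, 7.47, 7.48, 7.73 and 7.69 in the spatial learning arrays, against 7.63, 7.74, 7.70, 7.72, 7.42 and 7.74 in the control task arrays. The groups covered nearly the same range, with spatial learning arrays 3 and 4 and control task array 5 below the rest. The difference was -0.03, with an interval of -0.18 to 0.12 (limma adjusted p = 0.912). The dimmer probe set, 1369112_at, lay close to the background limit and ran between 3.83 and 4.22 after spatial learning and between 3.99 and 4.27 after the control task, a difference of -0.09 (interval -0.25 to 0.06, limma adjusted p = 0.660).

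Chrna7 encodes the subunit of the homomeric alpha7 nicotinic receptor, a calcium-permeable channel and not a G protein-coupled receptor. It read 5.64, 5.50, 5.61, 5.60, 5.59 and 5.62 in the spatial learning arrays, against 5.61, 5.62, 5.62, 5.61, 5.61 and 5.62 in the control task arrays. The control values were nearly constant, with an SD of 0.00406, and spatial learning values lay on both sides of them, array 2 being the lowest of all 12. Over the 12 arrays the SD was 0.0363, whereas the 1109 probe sets with means within 0.5 of its own had a median SD of 0.149. Only 29 of those 1109 probe sets, Chrna7 itself included, varied as little, or 2.61%. The difference was -0.02, with an interval of -0.10 to 0.06 (limma adjusted p = 0.873). The 5 probe sets below the background limit were similarly flat, with SDs from 0.00923 to 0.0281, and whether the Chrna7 probe set reports transcript at all was not tested.

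Htr1a encodes the 5-HT1A receptor, which couples to Gi/o and hyperpolarises pyramidal cells. It was the receptor with the largest positive difference. Its values were 5.96, 6.18, 6.20, 5.47, 5.94 and 5.89 in the spatial learning arrays, against 5.52, 5.69, 5.90, 6.04, 5.48 and 5.86 in the control task arrays. Spatial learning arrays 2 and 3 stood above every control, while spatial learning array 4 was the lowest of all 12. The means were 5.94 ± 0.26 after spatial learning and 5.75 ± 0.22 after the control task (SD, n = 6 each). The difference was 0.19 (interval -0.08 to 0.47, limma adjusted p = 0.606). It was 0.29 without spatial learning array 4 (limma adjusted p = 0.454) and 0.08 with a measure of RNA integrity, the hexokinase signal described further on, as a covariate.

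Htr2c encodes the 5-HT2C receptor, a Gq-coupled serotonin receptor whose messenger RNA is edited and which is very abundant in the choroid plexus. It varied most among the receptors. Its dimmer probe set, 1369860_a_at, read 6.76, 5.91, 5.73, 5.65, 6.58 and 6.24 in the spatial learning arrays, against 6.41, 6.48, 7.03, 6.46, 6.65 and 6.43 in the control task arrays. Spatial learning arrays 2, 3, 4 and 6 were below every control, while arrays 1 and 5 lay inside the control range. The means were 6.15 ± 0.46 after spatial learning and 6.58 ± 0.24 after the control task (SD, n = 6 each). The difference of -0.43, a ratio of 0.741 with an interval of 0.560 to 0.982, was the largest of the 11 probe sets. It did not pass, with a limma p of 0.0385 before and 0.437 after adjustment over all tested probe sets.

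The brighter Htr2c probe set, 1376980_at, read 9.27, 9.59, 9.23, 9.65, 9.07 and 9.23 in the spatial learning arrays, against 9.54, 9.60, 9.88, 9.34, 9.43 and 8.86 in the control task arrays. The highest and the lowest value were both control arrays, and the spatial learning values lay between them. The difference was -0.10 (interval -0.42 to 0.22, limma adjusted p = 0.841). The SD over 12 arrays was 0.283 here and 0.415 for 1369860_a_at, and 96.8% and 97.1% of the probe sets at similar levels varied no more than they did.

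Choroid plexus transcripts were examined beside Htr2c. Ttr, which encodes transthyretin and is the defining choroid plexus transcript in brain, read 4.36, 4.18, 4.38, 3.66, 4.36 and 4.43 in the spatial learning arrays, against 6.08, 7.54, 13.41, 4.98, 4.55 and 8.79 in the control task arrays. Control array 3, the highest in Ttr, was also the highest in both Htr2c probe sets, whereas control array 6, the second highest in Ttr, was the lowest in Htr2c 1376980_at. Of 14 choroid plexus markers 12 were on the array and 4 were above the limit, of which 3 were lower and 1 higher after spatial learning and 0 passed the limma test. The differences were -3.33 for Ttr (adjusted p = 0.423), -0.41 for Enpp2, -0.16 for Prlr and 0.18 for Kcne2. Prlr and Kcne2 lay close to the background limit, with means of 4.11 and 4.17 after spatial learning. After the control task their means were 4.27 and 3.99. Enpp2, a secreted lipid-producing enzyme, ran between 9.07 and 9.58 after spatial learning and between 9.24 and 10.94 after the control task, where array 3 alone exceeded 9.55. F5, coagulation factor V, lay below the limit with a median of 3.65 in both groups and read 5.34 in control task array 3. The mean of the 4 markers, in which Ttr had by far the widest range, ran between 5.18 and 5.58 after spatial learning and between 5.54 and 8.18 after the control task, and 4 spatial learning arrays lay below every control (exact permutation p = 0.00866, 2-sided, 0.0173 adjusted over 4 sample measures). Without control array 3 the Htr2c differences were -0.34 for 1369860_a_at and -0.01 for 1376980_at, against -0.43 and -0.10 with it. Without control array 6 they were -0.46 and -0.22, so that the small difference of 1376980_at depended on single arrays. With the choroid plexus mean as a covariate they were -0.23 and 0.01. The part of choroid plexus RNA in the Htr2c values was not tested beyond these fits. In bulk tissue, fewer cells of a type and less RNA per cell cannot be told apart.

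**Figure D2:**
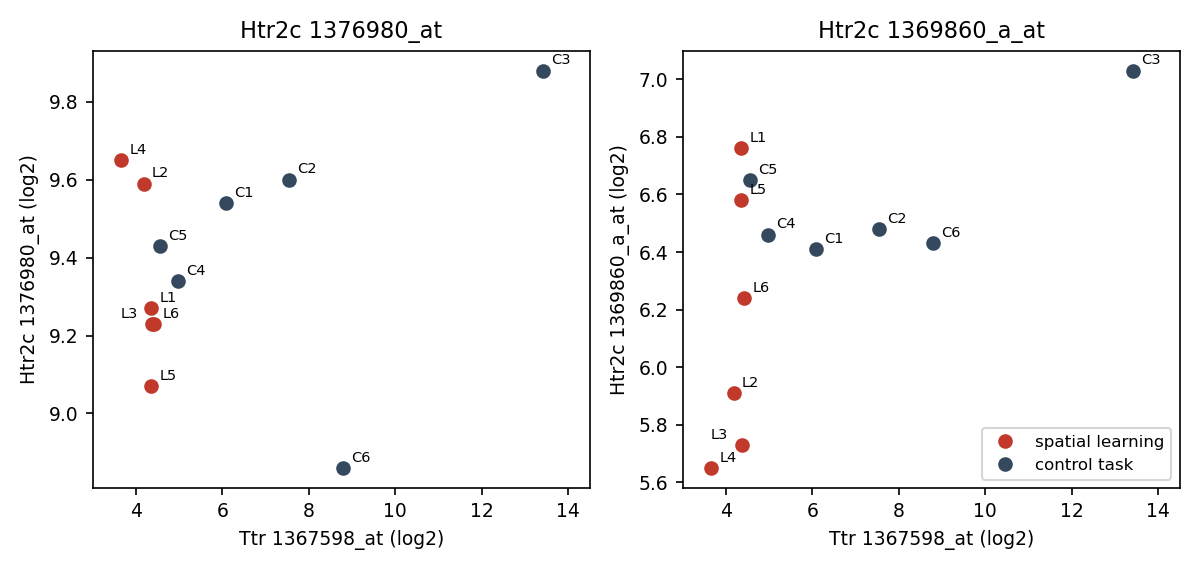
Each Htr2c probe set (vertical axis, log2) against Ttr (horizontal axis, log2), 1 point per array, labelled L for spatial learning and C for control task with the replicate number. Control array C3 is the highest on both axes in both panels, while C6, at 8.79 in Ttr, is the lowest array for 1376980_at.

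Adrb1 and Drd1, the Gs-coupled receptors for noradrenaline and dopamine, gave no value above the background limit on any array. Adrb1 ran between 1.93 and 1.96 after spatial learning and between 1.94 and 1.99 after the control task. The 2 probe sets of Drd1 had means of 2.97 and 2.56, with ranges over 12 arrays of 0.09 and 0.06. Values this flat and low give no usable difference between groups, and they do not show that the transcripts were absent. They entered the limma test solely in the alternative without a filter, in which 0 of all 16 receptor probe sets passed an adjusted p of 0.05.

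Adora1 encodes the A1 adenosine receptor, a Gi/o-coupled receptor that lowers transmitter release at the synapses CA1 receives from CA3. The dimmer of its 2 probe sets, 1370584_a_at, read 6.57, 6.75, 7.03, 7.06, 6.75 and 6.70 in the spatial learning arrays, against 7.35, 7.13, 7.0, 7.41, 6.99 and 6.68 in the control task arrays. Controls 1, 2 and 4 were above every spatial learning array, while control 6 lay among the low spatial learning values. The means were 6.81 ± 0.19 and, in the control task group, 7.09 ± 0.27 (SD, n = 6 each), a difference of -0.28. The ratio was 0.822, with an interval of 0.684 to 0.989, and the limma p was 0.0390 before and 0.437 after adjustment.

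The brighter Adora1 probe set, 1387721_at, read 7.58, 7.21, 7.34, 7.33, 7.39 and 7.27 in the spatial learning arrays, against 7.42, 7.34, 7.37, 7.50, 7.23 and 7.34 in the control task arrays. Both the highest and the lowest array belonged to the spatial learning group. The difference was -0.01, with an interval of -0.16 to 0.13 (limma adjusted p = 0.952). Adora2a, a Gs-coupled adenosine receptor known for its high level in striatum, lay below the limit in both probe sets, with means of 2.32 and 2.27.

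Cnr1 encodes the CB1 cannabinoid receptor, a Gi/o-coupled receptor of axon terminals that is highest in cholecystokinin interneurons. Its brighter probe set, 1369677_at, read 10.94, 10.96, 10.78, 10.75, 10.63 and 10.94 in the spatial learning arrays, against 10.90, 10.75, 10.92, 10.68, 10.90 and 10.71 in the control task arrays. Spatial learning arrays 1, 2 and 6 were above every control and array 5 was below them all. The difference was 0.02 (interval -0.12 to 0.17, limma adjusted p = 0.918). The dimmer probe set, 1387674_at, read 7.73, 7.44, 8.17, 7.95, 8.00 and 7.98 in the spatial learning arrays, against 8.01, 7.91, 8.22, 8.14, 8.08 and 8.04 in the control task arrays. Arrays 1 and 2 of the spatial learning group were below every control and the other 4 overlapped with it, for a difference of -0.19 (interval -0.42 to 0.03, limma adjusted p = 0.524). It was -0.10 without spatial learning array 2 and -0.09 with the hexokinase measure of RNA integrity, described further on, as a covariate. Cck, a peptide of the interneurons that carry most CB1, stood at 12.11 ± 0.12 after spatial learning and 11.92 ± 0.14 after the control task (difference 0.19, SE 0.07, limma adjusted p = 0.423). Cck had the smallest p of the 9 tested interneuron markers, of which 5 were higher and 4 lower (median 0.03), with Gad1, a GABA-synthesising enzyme, at -0.07. Which cells of the bulk tissue this Cck RNA came from was not tested.

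**Figure D3:**
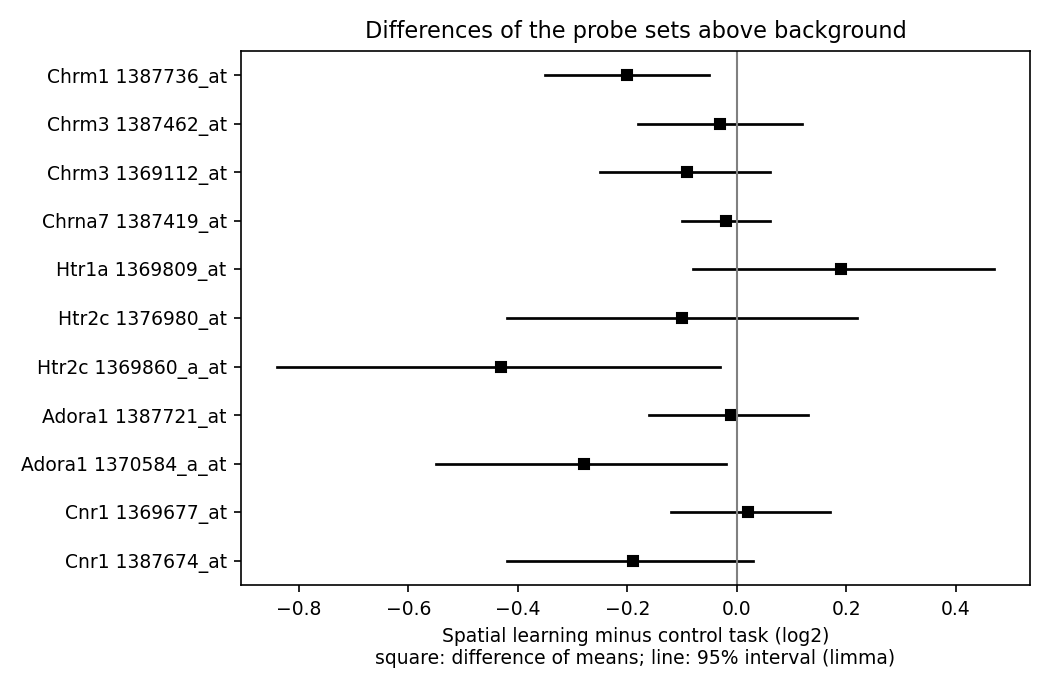
Difference of group means, spatial learning minus control task (horizontal axis, log2), for the 11 probe sets above the background limit, with limma's 95% interval before adjustment for the number of probe sets. The intervals of Chrm1, Htr2c 1369860_a_at and Adora1 1370584_a_at lie below 0, and the other 8 include it.

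Across the 11 tested receptor probe sets, 0 passed at a limma adjusted p of 0.05, as did 0 of all 9610 (0%). An unadjusted limma p under 0.05 was found for 3, Chrm1, Htr2c 1369860_a_at and Adora1 1370584_a_at, or 27.3%, against 10.9% of all tested probe sets. All 3 were lower after spatial learning, while 4.55% of all tested probe sets were lower and 6.36% higher with such a p. The exact rank-sum test gave such a p for Chrm1 alone (0.0152, adjusted 0.403). With so few probe sets, which share genes, no test of this share was made. The groups overlapped in all 11, and 0.635% of all tested probe sets had groups that did not overlap. In sign, 9 were lower and 2 higher, with a median of -0.09, while 46.3% of all tested probe sets were lower and their median was 0.00793. The SEs of the 11 differences ran from 0.04 to 0.19.

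A measure of RNA integrity differed between the groups. The array probes the hexokinase transcript at both ends, and the excess of signal at its 3' end, which grows as RNA is shortened, was 1.65 ± 0.11 after spatial learning and 1.48 ± 0.08 after the control task (log2, SD, n = 6 each, exact permutation p = 0.00433, 2-sided, 0.0173 adjusted over the 4 sample measures). The same excess was 1.93 ± 0.07 and, in the control task group, 1.83 ± 0.09 for actin, and 0.37 ± 0.08 and, in the control task group, 0.37 ± 0.06 for Gapdh, and neither passed (exact permutation p = 0.0779 and 0.998). With the hexokinase value as a covariate the differences were -0.21 for Chrm1, -0.34 for Htr2c 1369860_a_at and -0.17 for Adora1 1370584_a_at, and 0 of the 11 receptor probe sets had an unadjusted limma p under 0.05. In 5 of the 6 spatial learning arrays the hexokinase excess was above every control, so this fit separates group and covariate poorly. For Chrm1 the unadjusted limma p was 0.0639 with the covariate and 0.0142 without it, where the difference was -0.20. The part of RNA integrity in the receptor differences was not tested further.

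In each of the 4 genes with both probe sets above the limit, Chrm3, Htr2c, Adora1 and Cnr1, the dimmer probe set had the lower difference. The differences of the pairs, brighter minus dimmer, were 0.07 for Chrm3, 0.33 for Htr2c, 0.27 for Adora1 and 0.21 for Cnr1. None passed an exact permutation test over the arrays (2-sided p = 0.483, 0.258, 0.0909 and 0.212, adjusted over the 4 pairs 0.343 to 0.483). Across the 12 arrays the probe sets of a gene correlated at r = 0.21 and rho = 0.20 for Chrm3, r = 0.05 and rho = 0.06 for Htr2c, r = 0.13 and rho = 0.22 for Adora1, and r = -0.39 and rho = -0.33 for Cnr1. Permutation p-values of r were 0.516, 0.887, 0.683 and 0.220, and those of rho 0.544, 0.870, 0.498 and 0.299. After adjustment over the 55 pairs among the 11 probe sets they ran from 0.868 to 0.921. Without the 2 arrays farthest from the median of the brighter probe set r was -0.05, -0.33, 0.46 and -0.37.

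**Figure D4:**
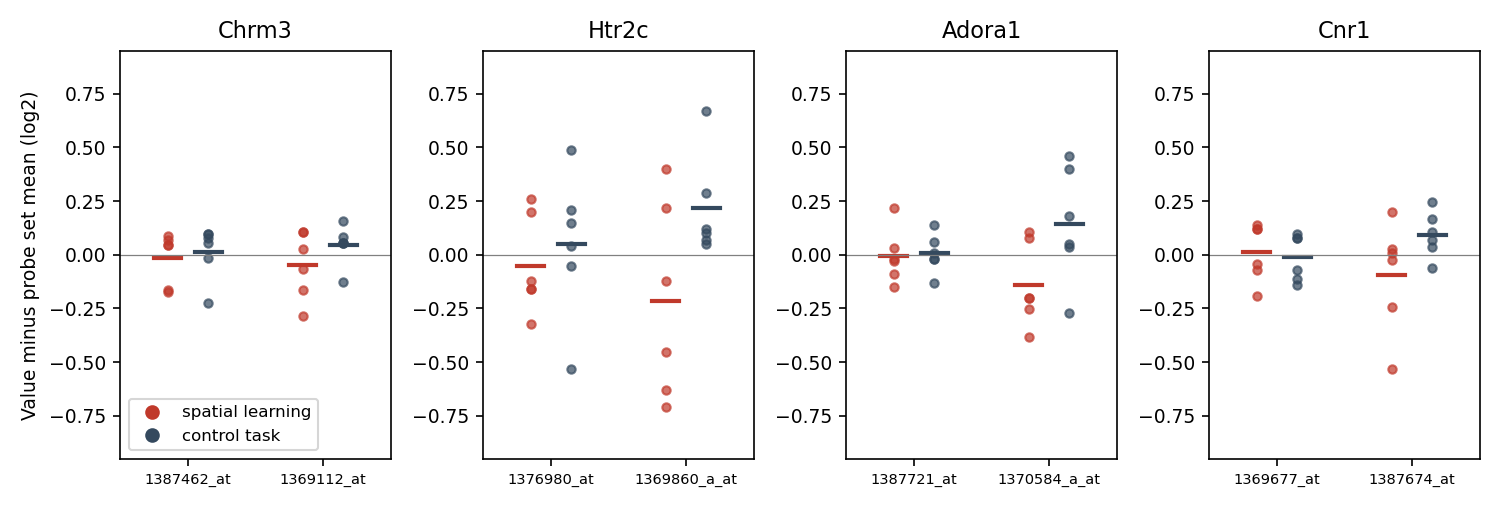
Values of the 4 genes with both probe sets above the limit, each minus the mean of its probe set over 12 arrays (vertical axis, log2), with spatial learning (red) left of control task (dark blue) and bars at the group means. In each gene the right-hand, dimmer probe set has the wider gap between the bars, and the points of the groups overlap in all 8.

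Of those 55 pairs, 1 had an unadjusted permutation p under 0.05 and 0 passed after adjustment. It was Chrm1 with Adora1 1370584_a_at, at r = 0.81 (permutation p = 0.00098, adjusted 0.0539) and rho = 0.54 (permutation p = 0.0756, adjusted 0.903). Without the 2 arrays farthest from the Chrm1 median r was 0.67, and it was 0.83 within the 6 spatial learning arrays and 0.71 within the 6 control task arrays. Spatial learning array 1 was the lowest of all 12 for both. For the Htr2c probe sets, whose range over the arrays exceeded 1, the genes with the most similar pattern among 8011 single-symbol probe sets were Lman2l, Foxn3 and Kpna4 for 1376980_at, at r = 0.87, 0.85 and 0.84 over 12 arrays. For 1369860_a_at they were Wdr7, Sdhb and Fstl1, at r = 0.90, 0.89 and 0.84. They were picked for these values, which therefore carry no test.

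Few other receptors of the same transmitters were above the background limit. Of 18 other acetylcholine receptor genes, 1 was, Chrm4, the Gi/o-coupled M4 receptor, at a difference of -0.08 (SE 0.08). The nicotinic subunits Chrna4 and Chrnb2, which form the most common heteromeric nicotinic receptor of brain, had means of 2.68 and 3.32. Of 26 other monoamine receptor genes on the array 6 were above it, 5 higher and 1 lower after spatial learning, with 0 past the test and a list median of 0.08. Htr5b, a serotonin receptor gene active in rodents, stood at 9.12 ± 0.17 after spatial learning and 8.87 ± 0.11 after the control task (SD, n = 6 each). The difference was 0.25 with an SE of 0.08 and a limma p of 0.00775, 0.393 after adjustment. Hrh3, the Gi/o-coupled histamine H3 receptor, differed by -0.10 in its brightest probe set and by -0.27 in another. Adra1d, a Gq-coupled adrenergic receptor, differed by 0.11 and Htr1b, a Gi/o-coupled serotonin receptor, by 0.10. Drd2 to Drd5, the other dopamine receptors, had means between 2.22 and 2.95. Of 3 further genes of the adenosine and cannabinoid group, only Cnrip1, whose product binds the tail of CB1, was above the limit, at -0.07 (SE 0.10).

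None of the tested signalling genes behind these receptors passed. Among 9 tested genes of the Gq pathway 5 were higher and 4 lower (median 0.06), led by Prkcb, a protein kinase C, at 0.12, the channels Trpc1 at 0.16 and Trpc4 at 0.13, and Kcnq3 at -0.54. Kcnq3 encodes a subunit of the M current, the potassium current that muscarinic receptors close, and stood at 7.21 ± 0.44 after spatial learning and 7.76 ± 0.36 after the control task (SD, n = 6 each). Its limma p was 0.0206 before and 0.429 after adjustment. Among 13 tested genes of the Gi/o pathway 5 were higher and 8 lower (median -0.06). Gnai2, an inhibitory G protein subunit, was at -0.12, Kcnj6 and Kcnj9, subunits of the inwardly rectifying channels, at 0.10 and -0.16, and Gng5, a G protein gamma subunit, at -0.23. Among 18 tested genes of the Gs pathway 7 were higher and 11 lower (median -0.03), with the phosphodiesterases Pde2a at 0.15 and Pde1a at -0.18, the adenylyl cyclase Adcy5 at 0.20 and the kinase regulatory subunit Prkar2b at -0.11.

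Receptor kinases and arrestins, which end receptor signalling, had 3 tested genes with a median of 0.03: Arrb2 at 0.05, Grk6 at 0.03 and Grk2 near 0. Another probe set of Grk6 differed by 0.20. Most genes of acetylcholine and monoamine synthesis, transport and breakdown lay below the limit. Of 5 acetylcholine genes on the array, Chat, the synthesising enzyme, among them, 0 were above the limit, with Slc5a7 just under it at 3.98. Of 12 monoamine genes 2 were, the breakdown enzymes Maoa at -0.10 and Maob at -0.01, while the synthesising enzymes Th and Dbh had means of 1.97 and 2.86. In the adenosine list 2 of 6 tested genes were higher and 4 lower (median -0.03), with the transporters Slc29a2 at 0.05 and Slc29a3 at -0.13, Ahcy at -0.05 and Entpd2 at -0.03. Another probe set of Slc29a3 differed by 0.03. In the endocannabinoid list 3 of 6 were higher and 3 lower (median -0.01). Ptgs2, cyclooxygenase-2, an activity-induced enzyme that also oxidises endocannabinoids, stood at 6.33 ± 0.32 after spatial learning and 6.75 ± 0.25 after the control task (difference -0.41, SE 0.15, limma adjusted p = 0.427). The hydrolases Naaa and Abhd6 differed by -0.08 and -0.04 and the phospholipase Plcb1 by 0.06.

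**Figure D5:**
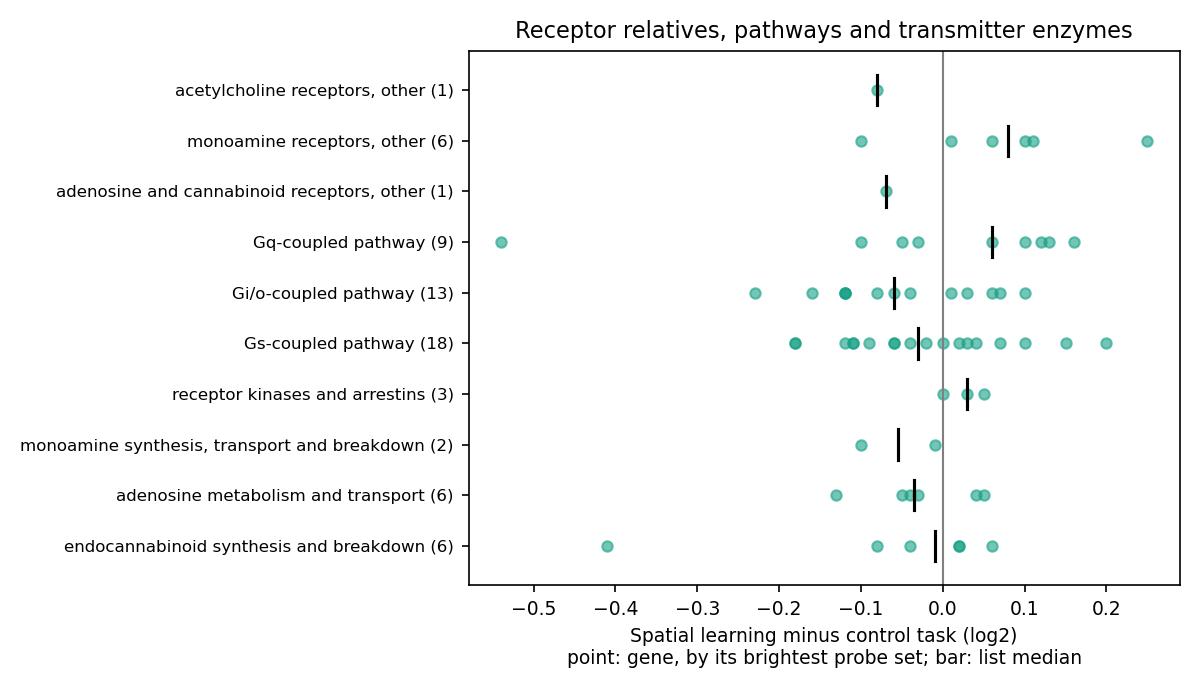
Differences of the tested genes of 10 lists around the receptors (horizontal axis, spatial learning minus control task, log2), 1 point per gene and a bar at the list median, with the number of tested genes in brackets. List medians lie between -0.08 and 0.08, and Kcnq3 (-0.54) and Ptgs2 (-0.41) stand farthest from 0.

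Wfs1, a CA1 pyramidal cell marker, had a mean of 12.03, and of 8 tested CA1 markers 7 were higher and 1 lower after spatial learning (median 0.14, 0 past the test). Their mean ran between 10.02 and 10.31 after spatial learning and between 9.93 and 10.18 after the control task. Prox1, the dentate granule cell marker, had a mean of 5.74, and of 7 tested dentate markers 2 were higher and 5 lower (median -0.23, 0 past the test). Their mean ran between 7.32 and 7.59 after spatial learning and between 7.42 and 7.74 after the control task. With an unadjusted limma p under 0.05, 3 CA1 markers were higher and 0 lower, and 2 dentate markers were lower and 0 higher. Of all tested probe sets, 6.36% were higher and 4.55% lower with such a p. Interneuron RNA was present, with Gad1, a GABA-synthesising enzyme, at 10.55. Astrocyte RNA was present too, with Gfap, an astrocyte filament protein, at 11.57. Ppp1r1b, the striatal phosphoprotein DARPP-32, read 8.19. It was among the 9 of 11 markers of striatum and neighbouring regions on the array that lay above the limit. Drd2, at 2.30, was not. Among the other marker lists 0 genes passed. The medians were -0.07 for CA3 (5 tested), 0.03 for interneurons (9), -0.06 for striatum and neighbouring regions (9), -0.28 for choroid plexus (4), -0.29 for meninges (7), -0.10 for astrocytes (12), -0.04 for oligodendrocytes (9), -0.05 for microglia (10) and -0.07 for vessels (9). In the list of striatum and neighbouring regions 3 genes were higher and 6 lower, and Slc17a6 differed most, at -0.73 (SE 0.26, limma adjusted p = 0.426). Meningeal markers ran higher in single arrays, their mean reaching 7.85 after spatial learning and 8.02 after the control task, against medians of 6.37 and 6.47. The part of these neighbouring tissues in the receptor values was not tested beyond the choroid plexus and hexokinase covariates and the arrays left out.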

How the data were processed

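The authors deposited 1 table of log2 probe set values for 15923 probe sets on 12 arrays, 1 array per rat. Per the submitters' processing notes the values come from GCRMA, which corrects background by probe sequence, normalizes between arrays and summarises probes; the sources used here name no version. It presses dim probe sets towards a constant and hides changes in total RNA. That the scale is log2 was read from the range of 0.134 to 14.79. The correlation between any 2 arrays was 0.996 to 0.998. Scan dates are not given, so no batch was tested.

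Groups came from the sample titles. Probe sets with 1 gene symbol in the platform annotation were named. For all 16 receptor probe sets the gene identifier and symbol matched the rat reference table. Controls (57) and 6256 probe sets with a mean under 4 were left out, and 9610 remained. Group means were compared by limma 3.58.1 (R 4.3.3; lmFit, then eBayes with trend) without covariates; 2-sided p-values were adjusted over these 9610 by Benjamini-Hochberg, with 0.05 as threshold. Levels of different probe sets depend on their probes. Setting them side by side, or against the background limit and the other-tissue genes, is descriptive, and no test compared them. Exact permutation tests ran over the 924 ways to choose 6 of 12 arrays (smallest p 0.00216), and correlations used 100000 permutations (scipy 1.17.1). The procedure was tested on simulated data, in which every added difference was larger than those of the receptors. Recovery of differences as small as theirs was not tested. The receptors, and the 23 lists of related and marker genes, were chosen with earlier results of these data known. All receptor probe sets are named. Of each related list up to 4 genes with the smallest p are named, each through its brightest probe set, and of marker lists a fixed set of defining genes. Drd2 to Drd5, Chrna4, Chrnb2, Chat, Slc5a7, Th, Dbh, Enpp2, F5, Prlr, Kcne2 and Slc17a6 were named after their values were seen.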

Additional observations from a re-analysis of the deposited data

Results flagged for a closer look

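In 5 of the 32 groups of 6 arrays examined, 1 for each receptor probe set and group, a single array stood apart from the other 5, by a gap to the nearest that was large for the whole range of the group (Dixon's criterion). For independent, normally distributed values chance alone gives about 1 such group in 20. The groups here share arrays, and 5 of the 16 probe sets lay below the background limit, so the count was not tested against that rate. Spatial learning array 2 read 5.50 for Chrna7, against 5.59 to 5.64 in the other 5. Spatial learning array 5 read 1.93 for Adrb1, against 1.95 to 1.96, and 2.60 for Drd1 1368478_at, against 2.55 to 2.56, both of them below the background limit. Control task array 5 read 7.42 for Chrm3 1387462_at, against 7.63 to 7.74 in the others, and control task array 1 read 3.99 for Chrm3 1369112_at, against 4.17 to 4.27.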

How the results depend on the processing

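None of the receptor probe sets passed an adjusted p of 0.05 in any of the 24 alternatives (filters, normalizations, test settings, covariates and arrays left out). Chrm1, Htr1a, Htr2c 1369860_a_at, Adora1 1370584_a_at, Cnr1 1387674_at and, wherever it was tested, Chrm3 1369112_at kept their sign throughout. Alternatives that changed only the filter or the test settings left each difference as it was, so no sign could turn in them. Chrm1 ran from -0.25 to -0.15 with an unadjusted p under 0.05 in 23 of 24 alternatives, Adora1 1370584_a_at from -0.40 to -0.17 (15 of 24) and Htr2c 1369860_a_at from -0.55 to -0.23 (14 of 24). The alternatives reuse the same arrays or most of them, so these counts are not independent evidence of a difference. The number of receptor probe sets with such a p, 3, was 0 with the hexokinase gap as covariate, 1 with the exact rank-sum test and 1 to 3 with each array left out, 1 without spatial learning array 2. Htr1a ran from 0.08 to 0.29, Cnr1 1387674_at from -0.25 to -0.09, Chrm3 1369112_at from -0.13 to -0.05 and Htr2c 1376980_at from -0.22 to 0.01. Signs turned where differences were near 0. With the hexokinase covariate Chrna7 was 0.000125, Adora1 1387721_at 0.07 and Cnr1 1369677_at -0.05, and with the choroid plexus covariate Chrm3 1387462_at was 0.03 and Htr2c 1376980_at 0.01. With each array left out Chrm3 1387462_at ran from -0.08 to 0.01, Adora1 1387721_at from -0.06 to 0.01 and Cnr1 1369677_at from -0.00216 to 0.07. Over all probe sets 0 passed, 0 to 3 with each array left out (3 without control array 6) and 5 without control arrays 3 and 6 and spatial learning array 6. The causes were not tested. Replicate numbers are shared between groups but did not pair the arrays: deviations of same-numbered arrays correlated at -0.171 to 0.0821, and 1 of 6 spatial learning arrays correlated best with its own number. With the replicate block 0 probe sets passed and 3 receptor probe sets had an unadjusted p under 0.05. The count above background, 11, was 1 with the 95th percentile of the other-tissue genes, a limit set by Myh1, and 10 without Myh1. The number of arrays limits the precision.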
